A study of Homo sapiens with 18 samples.

Results

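The question addressed here is which genes of Cal27 cells responded differently to calcitonin gene-related peptide (CGRP) once glucose was taken away. Cal27 is an established line of human tongue squamous cell carcinoma. The quantity described is the CGRP response in glucose-deprived medium minus the CGRP response in high-glucose medium, taken gene by gene from RNA sequencing counts. It rests on 12 of the 18 libraries of the series, all of those in these media. These are 3 cultures in glucose-deprived medium with 10 nM recombinant human CGRP, 3 in glucose-deprived medium with control medium, 3 in high-glucose DMEM with 10 nM CGRP and 3 in high-glucose DMEM with control medium, each harvested after 24 hours and described by the series as independent repetitions. The other 6 libraries, kept in high-glucose DMEM plus 5 mM 2-DG (2-deoxyglucose, which competes with glucose and stalls glycolysis), with and without CGRP, entered the same model and serve below for comparison. The libraries are titled TG and capTG; the series text reads these as CGRP and control, while the protocol for cell growth mentions nothing beyond "different CM", so CGRP here means the libraries titled TG. No gene was edited in these cells, so there was no targeted gene to check the titles against.

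CGRP is a neuropeptide of sensory nerves, which are dense in the tongue. It binds a receptor made of CALCRL and its partner RAMP1, which classically raises cyclic AMP. Cells read glucose partly through MondoA, a transcription factor that is held back when glucose phosphates are scarce and that drives TXNIP and related arrestins. They read failed protein folding and missing amino acids through the integrated stress response, whose transcription factor ATF4 raises amino acid synthesis, tRNA charging and stress hormones. Among the other programmes that glucose supply touches, HIF factors drive glycolysis and angiogenesis genes, and NRF2 drives glutathione and redox enzymes.

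The CGRP libraries and their controls were alike in depth. Totals were 28.63M to 31.41M counts in deprived CGRP, 30.99M to 32.66M in deprived control, 30.08M to 31.13M in high-glucose CGRP and 28.49M to 30.43M in high-glucose control. Deprived CGRP 2 stood apart from its group: its median gene lay 0.349 log2 units from the mean of the other libraries of its group, against at most 0.199 for each of the 11 other libraries. A chi-square per degree of freedom over genes was 79.4 and 82.6 between it and its group mates and 1.43 between those mates. All 16 squamous epithelial markers were expressed, with a summed level of 5475 to 5635 CPM (counts scaled to library size) in deprived CGRP, 5736 to 5845 in deprived control, 7012 to 7062 in high-glucose CGRP and 6812 to 6939 in high-glucose control. CD3D, MS4A1, STMN2, TAC1, SCN10A and CDH19, markers of lymphocytes, neurons and Schwann cells, had 0 counts in all 12 libraries. Other markers of neurons and Schwann cells were expressed, among them SCN9A (mean of 28.4 CPM in deprived CGRP, 23.3 in deprived control, 0.456 in high-glucose CGRP and 0.639 in high-glucose control), SYT1, NEFM, TRPV1, MBP, ERBB3 and NGFR. The summed neuron markers were 54.3 to 64.7 CPM in deprived CGRP, 52.8 to 53.8 in deprived control, 30.9 to 32.8 in high-glucose CGRP and 21.7 to 23.3 in high-glucose control, and the summed Schwann cell markers lay between 113.5 and 157.2 CPM in all 12. The summed fibroblast markers were 14.3 to 20.4 CPM in deprived CGRP, 12.1 to 13.6 in deprived control, 31.0 to 33.1 in high-glucose CGRP and 30.1 to 31.9 in high-glucose control. The summed endothelial markers, mostly CDH5, were 3.31 to 4.19 CPM in deprived CGRP, 2.14 to 2.96 in deprived control, 42.8 to 44.5 in high-glucose CGRP and 24.9 to 25.9 in high-glucose control. The summed leukocyte markers, 258 to 278 CPM in deprived CGRP, 277 to 289 in deprived control, 519 to 536 in high-glucose CGRP and 474 to 487 in high-glucose control, were nearly all CD74, while PTPRC had 2 counts in the 12 libraries together. The part of these marker levels in the results was not tested. Since libraries are bulk RNA, a change in the share of some cells and a change in RNA per cell cannot be told apart.

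Of 18159 genes tested, 282 (1.55%) had a CGRP response that differed between the media at an adjusted p below 0.05. For 164 of them (0.903%) the response was higher, or less negative, in deprived medium (a positive difference), and for 118 (0.650%) it was lower (a negative difference). Most differences were of modest size: 29 positive and 11 negative ones reached 1 log2 unit, and the median absolute difference was 0.584 among the called genes and 0.159 among all tested genes. At an unadjusted p below 0.05 there were 2164 of the 18159 genes, the background for the counts of list members at that threshold below. The count of called differences depends on the libraries used. It was 582 without deprived CGRP 2, 2500 (1083 positive, 1417 negative) without deprived CGRP 2 and the similarly outlying 2-DG control 2, and 164 when only the 12 libraries were fitted; the 282 genes included 158 of those 164, and all 282 were among the 2500. Leaving out any single high-glucose or deprived control library gave 162 to 194. Scaling by total counts gave 194 positive and 81 negative calls, a share of 70.5% positive in place of 58.2%.

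In deprived medium 2354 genes (13.0%) passed the test with CGRP, 1159 up (6.38%) and 1195 down (6.58%). In high glucose 787 (4.33%) passed, 371 up (2.04%) and 416 down (2.29%). When each medium was fitted by its own 6 libraries these counts turned round, to 141 in deprived medium and 3653 in high glucose, so which medium had more calls depends on the fit. Across all tested genes the responses in the media, which share no library, had a Pearson r of 0.308 and a Spearman rho of 0.36, and 401 genes passed in the same direction in both. Of the 164 genes with a positive difference, 99 rose in deprived medium and did not pass in high glucose, 35 fell in high glucose and did not pass in deprived medium, 12 rose in both, 8 fell in both, 8 rose in deprived medium and fell in high glucose, and 2 passed in neither. Of the 118 with a negative difference, 67 fell in deprived medium and did not pass in high glucose, 24 rose in high glucose and did not pass in deprived medium, 16 fell in deprived medium and rose in high glucose, 5 fell in both and 6 passed in neither.

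**Figure D1:**
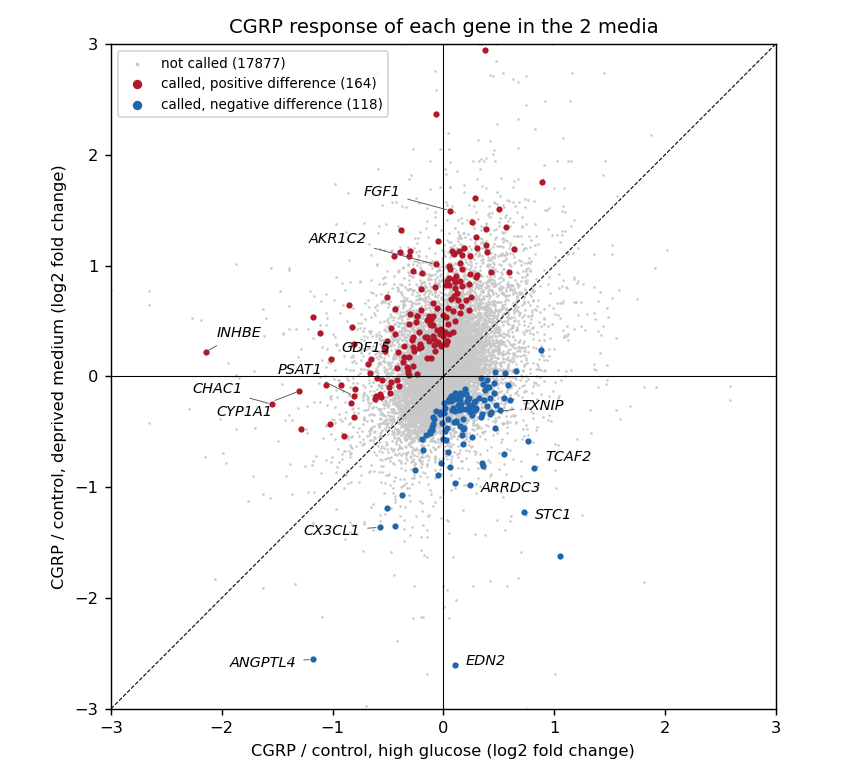
Each point is a gene, with its CGRP over control log2 fold change in deprived medium on the vertical axis and in high glucose on the horizontal axis. The 164 genes with a positive difference (red) lie above the dashed line of equal response and the 118 with a negative difference (blue) below it, with INHBE far to the left and EDN2 and ANGPTL4 at the bottom; values beyond 3 log2 units are drawn at the edge.

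The promoters of 3 genes of glucose sensing and stress signalling are shown first. They were chosen because each carries a short sequence of the kind its pathway's transcription factor is known to read. Windows from RefSeq (GRCh38.p14) of 250 bases before to 50 after the start were at hand for 52 of the 74 named genes, and the 250 bases before the start are printed 5′ to 3′ on the gene's strand, with the match in capitals. For TXNIP, an arrestin that restrains glucose uptake and binds thioredoxin, the match is to the carbohydrate response element, searched as CACGNG, 5 free bases and CACGNG on both strands. For CHAC1, which breaks down glutathione, it is to the C/EBP-ATF element TGATGNAA, found on the opposite strand. For GCLM, a subunit of the enzyme that makes the precursor of glutathione, it is to the antioxidant response element TGACNNNGC, also on the opposite strand. The positions are chr1:145996580-145996829 (minus strand) for TXNIP, chr15:40953221-40953470 (plus strand) for CHAC1 and chr1:93909431-93909680 (minus strand) for GCLM.
TXNIP: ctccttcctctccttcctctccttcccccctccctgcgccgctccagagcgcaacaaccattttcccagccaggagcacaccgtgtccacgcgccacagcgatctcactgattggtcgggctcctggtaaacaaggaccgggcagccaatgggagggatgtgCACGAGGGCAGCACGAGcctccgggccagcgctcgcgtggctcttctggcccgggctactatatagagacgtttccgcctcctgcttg
CHAC1: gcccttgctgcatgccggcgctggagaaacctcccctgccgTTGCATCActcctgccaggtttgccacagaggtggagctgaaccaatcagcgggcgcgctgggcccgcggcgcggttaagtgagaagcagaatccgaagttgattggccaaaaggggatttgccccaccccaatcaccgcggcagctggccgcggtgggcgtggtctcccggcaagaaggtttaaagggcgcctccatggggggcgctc
GCLM: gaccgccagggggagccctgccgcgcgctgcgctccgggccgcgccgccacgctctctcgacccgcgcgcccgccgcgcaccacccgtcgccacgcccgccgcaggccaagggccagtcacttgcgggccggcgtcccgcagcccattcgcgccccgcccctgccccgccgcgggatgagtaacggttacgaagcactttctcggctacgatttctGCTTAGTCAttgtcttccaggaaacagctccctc
Of the 300-base windows of tested genes, 0.133% held the carbohydrate response element, 1.76% the C/EBP-ATF element and 15.2% the antioxidant element, so the last is common by itself. Most other named targets had no match to the element of their pathway: ARRDC3, ARRDC4 and PFKFB3 held no carbohydrate response element, GDF15, PSAT1, TRIB3, SLC1A5 and DDIT3 held no C/EBP-ATF element while ASNS held 1, and AKR1C2 and SQSTM1 held no antioxidant element. Of 117 positive genes with a window, 3 (2.56%, CHAC1 among them) held the C/EBP-ATF element, 22 (18.8%) the antioxidant element and 0 the carbohydrate response element. Of 92 negative genes with a window, 1 (1.09%), 13 (14.1%) and 1 (1.09%) did, in that order. A match is a description of letters and not of binding.

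Genes that MondoA and its relative ChREBP drive had a negative difference. Of 12 tested, 6 passed with a negative difference, 0 with a positive one and 6 did not pass, with a median difference of -0.48 against 0.01 over all tested genes. Their median response was -0.26 in deprived medium and 0.19 in high glucose. TXNIP had 10.35, 10.4 and 11.1 CPM in deprived CGRP and 13.2, 13.3 and 13.7 CPM in deprived control. In high glucose it had 755, 672 and 760 CPM with CGRP and 585, 542 and 595 CPM in control. The CGRP libraries thus lay wholly below their controls in deprived medium and wholly above them in high glucose, at levels far apart between the media. The response was -0.34 in deprived medium and 0.35 in high glucose, a difference of -0.68 ± 0.09 (log2, ± SE, adjusted p = 0.000897).

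ARRDC3, an arrestin that sorts membrane receptors, had 18.2, 16.3 and 17.8 CPM in deprived CGRP and 35.4, 34.4 and 33.4 CPM in deprived control. In high glucose it had 54.8, 51.1 and 53.5 CPM with CGRP and 49.9, 42.2 and 43.0 CPM in control. It fell with CGRP in deprived medium (-0.98, adjusted p = 2.75e-06), while in high glucose, where every CGRP library was above every control library, the response of 0.24 did not pass (adjusted p = 0.0977). The difference was -1.22 ± 0.11 (adjusted p = 2.17e-05). KLF10, a zinc-finger transcription factor, had 23.2, 21.2 and 22.5 CPM in deprived CGRP, 35.3, 31.7 and 31.7 CPM in deprived control, 66.7, 67.1 and 67.0 CPM in high-glucose CGRP and 65.1, 67.7 and 68.2 CPM in high-glucose control. Its groups were apart in deprived medium and overlapped in high glucose, with a difference of -0.56 ± 0.07 (adjusted p = 0.000897). The other 3 members that passed were ARRDC4 (-0.51), PFKFB3 (-0.75) and BHLHE40 (-0.45). With counts scaled by totals, and in the fit of the 12 libraries alone, 3 members passed in place of 6, all negative. No member passed with a positive difference in edgeR at an unadjusted p below 0.05 (0, against 7 negative) or in DESeq2 (0, against 6 negative).

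Targets of ATF4 had the opposite sign. Of 32 tested, 10 passed with a positive difference, 0 with a negative one and 22 did not pass, and the median difference was 0.33. The members did not rise with CGRP in deprived medium, where 0 rose and 6 fell; in high glucose 0 rose and 19 fell, with a median response of -0.10 in deprived medium and -0.39 in high glucose. GDF15, a stress hormone of the TGF-beta family, had 250, 291 and 267 CPM in deprived CGRP and 241, 236 and 249 CPM in deprived control. In high glucose it had 21.1, 22.1 and 22.8 CPM with CGRP and 42.8, 42.9 and 47.8 CPM in control. CGRP thus lowered a low level in high glucose and gave a response of 0.15 (adjusted p = 0.116) at the high level of deprived medium, where the groups did not overlap by a margin of about 1 CPM. The difference was 1.17 ± 0.09 (adjusted p = 7.28e-06).

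CHAC1 had 24.2, 28.9 and 23.9 CPM in deprived CGRP, 29.8, 30.4 and 31.4 CPM in deprived control, 1.53, 2.06 and 1.72 CPM in high-glucose CGRP and 4.67, 4.99 and 5.89 CPM in high-glucose control. CGRP libraries were below control libraries in both media, by far more in high glucose (-1.55, adjusted p = 7.02e-06) than in deprived medium (-0.25, adjusted p = 0.117), and the difference was 1.30 ± 0.18 (adjusted p = 0.000944). INHBE, which encodes a subunit of activin E, had the largest positive difference under the naming rule, 2.37 ± 0.27 (adjusted p = 0.000254). It stood at 29.6, 34.0 and 29.3 CPM in deprived CGRP, 24.2, 27.2 and 28.1 CPM in deprived control, 0.367, 0.188 and 0.350 CPM in high-glucose CGRP and 1.40, 1.37 and 1.28 CPM in high-glucose control. Between deprived medium and high glucose, its response passed in high glucose only (-2.14). It also fell with CGRP in 2-DG medium (-2.81, adjusted p = 5.47e-07).

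PSAT1, an enzyme of serine synthesis, fell in both media, to 448, 496 and 444 CPM in deprived CGRP against 532, 519 and 514 CPM in deprived control, and to 190, 195 and 193 CPM in high-glucose CGRP against 334, 341 and 338 CPM in high-glucose control. The difference was 0.63 ± 0.07 (adjusted p = 0.000254). TRIB3, a pseudokinase that ATF4 induces, had 458, 558 and 459 CPM in deprived CGRP, 495, 499 and 499 CPM in deprived control, 23.1, 26.0 and 25.8 CPM in high-glucose CGRP and 37.1, 38.5 and 37.9 CPM in high-glucose control. Deprived CGRP 2 was the only deprived CGRP library above its controls, and the difference was 0.58 ± 0.11 (adjusted p = 0.012). The other members that passed were PCK2 (0.70), CEBPG (0.42), PSPH (0.37), MTHFD2 (0.33) and SLC1A5 (0.32). At an unadjusted p below 0.05 there were 19 positive and 1 negative members, and DESeq2 called 12 and 0. Without deprived CGRP 2, 16 of the list passed, all positive, while 6 passed with no low-count filter, 7 in a fit of the compared groups alone, and 7 or 8 with any 1 high-glucose or deprived control library left out. DDIT3, the stress factor CHOP, did not pass (0.89, adjusted p = 0.186), with 269, 489 and 273 CPM in deprived CGRP and 249, 266 and 254 CPM in deprived control, where deprived CGRP 2 was the high library; without it the difference was 0.54 (adjusted p = 0.165). ASNS, asparagine synthetase, did not pass either (0.42 ± 0.37, adjusted p = 0.748) at levels below 5 CPM in every library.

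Aminoacyl-tRNA synthetases, which load amino acids onto tRNAs and which ATF4 also drives, followed the same pattern in part. Of 20 tested, 4 passed, all positive, and 16 did not, with a median difference of 0.04. GARS1, the glycine enzyme, had 613, 692 and 614 CPM in deprived CGRP, 658, 654 and 656 CPM in deprived control, 144, 148 and 149 CPM in high-glucose CGRP and 211, 220 and 216 CPM in high-glucose control. The response was -0.04 in deprived medium, where the groups overlap, and -0.55 in high glucose, and the difference 0.52 ± 0.08 (adjusted p = 0.00173). YARS1 (0.40), CARS1 (0.36) and WARS1 (0.26) also passed. This count was fragile: it was 1 or 2 with any 1 of the high-glucose or deprived control libraries left out, and 6 without deprived CGRP 2. Amino acid transporters had 2 positive calls among 18, SLC1A5 and SLC43A1 (0.99), which carry glutamine and branched-chain amino acids. That count was 5 without deprived CGRP 2, 9 when 2-DG control 2 was left out as well, 1 or 0 with any 1 high-glucose or deprived control library left out, 1 in a fit of the compared groups alone and 0 with no low-count filter.

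Some targets of NRF2 also had positive differences. Of 27 tested, 8 passed with a positive difference, 0 with a negative one and 19 did not pass; the median difference was 0.30. In deprived medium 10 rose, 1 fell and 16 did not pass with CGRP, and in high glucose 1 rose and 6 fell. GCLM had 138, 123 and 143 CPM in deprived CGRP and 102, 89.0 and 99.8 CPM in deprived control, against 67.8, 67.8 and 70.7 CPM in high-glucose CGRP and 85.6, 86.2 and 84.5 CPM in high-glucose control. All CGRP libraries were above the controls in deprived medium and all were below them in high glucose. The responses were 0.48 and -0.31 in these media, a difference of 0.79 ± 0.09 (adjusted p = 0.000357).

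TRIM16L, a relative of the ubiquitin-system gene TRIM16, crossed over in the same way, with 104, 100 and 110 CPM in deprived CGRP, 71.9, 69.7 and 74.0 CPM in deprived control, 49.1, 44.2 and 47.4 CPM in high-glucose CGRP and 54.4, 56.3 and 55.0 CPM in high-glucose control. Its difference was 0.78 ± 0.07 (adjusted p = 2.17e-05). AKR1C2, an aldo-keto reductase that reduces steroids and carbonyls, had 77.2, 89.4 and 86.0 CPM in deprived CGRP, 43.1, 39.4 and 42.9 CPM in deprived control, 16.4, 16.5 and 19.7 CPM in high-glucose CGRP and 17.7, 18 and 19.6 CPM in high-glucose control. It rose in deprived medium alone, with a difference of 1.08 ± 0.12 (adjusted p = 0.000228). AKR1C1 (0.88) and AKR1C3 (0.96) moved with it; the family's sequences are so alike that reads may be split among them, as between TRIM16L and TRIM16. HMOX1, which degrades haem (0.77), TXNRD1, thioredoxin reductase (0.62), and OSGIN1 (0.54) completed the 8. At an unadjusted p below 0.05 edgeR gave 16 positive and 0 negative members, and DESeq2 called 8 and 0. Without deprived control 2 there were 5 calls in the list, all positive. SQSTM1, the autophagy receptor p62, which is itself a known NRF2 target, had 2319, 2761 and 2367 CPM in deprived CGRP, 2197, 2161 and 2249 CPM in deprived control, 483, 482 and 494 CPM in high-glucose CGRP and 620, 615 and 632 CPM in high-glucose control. Its response passed in high glucose (-0.36) and not in deprived medium (0.17), with a difference of 0.53 ± 0.10 (adjusted p = 0.0087).

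**Figure D2:**
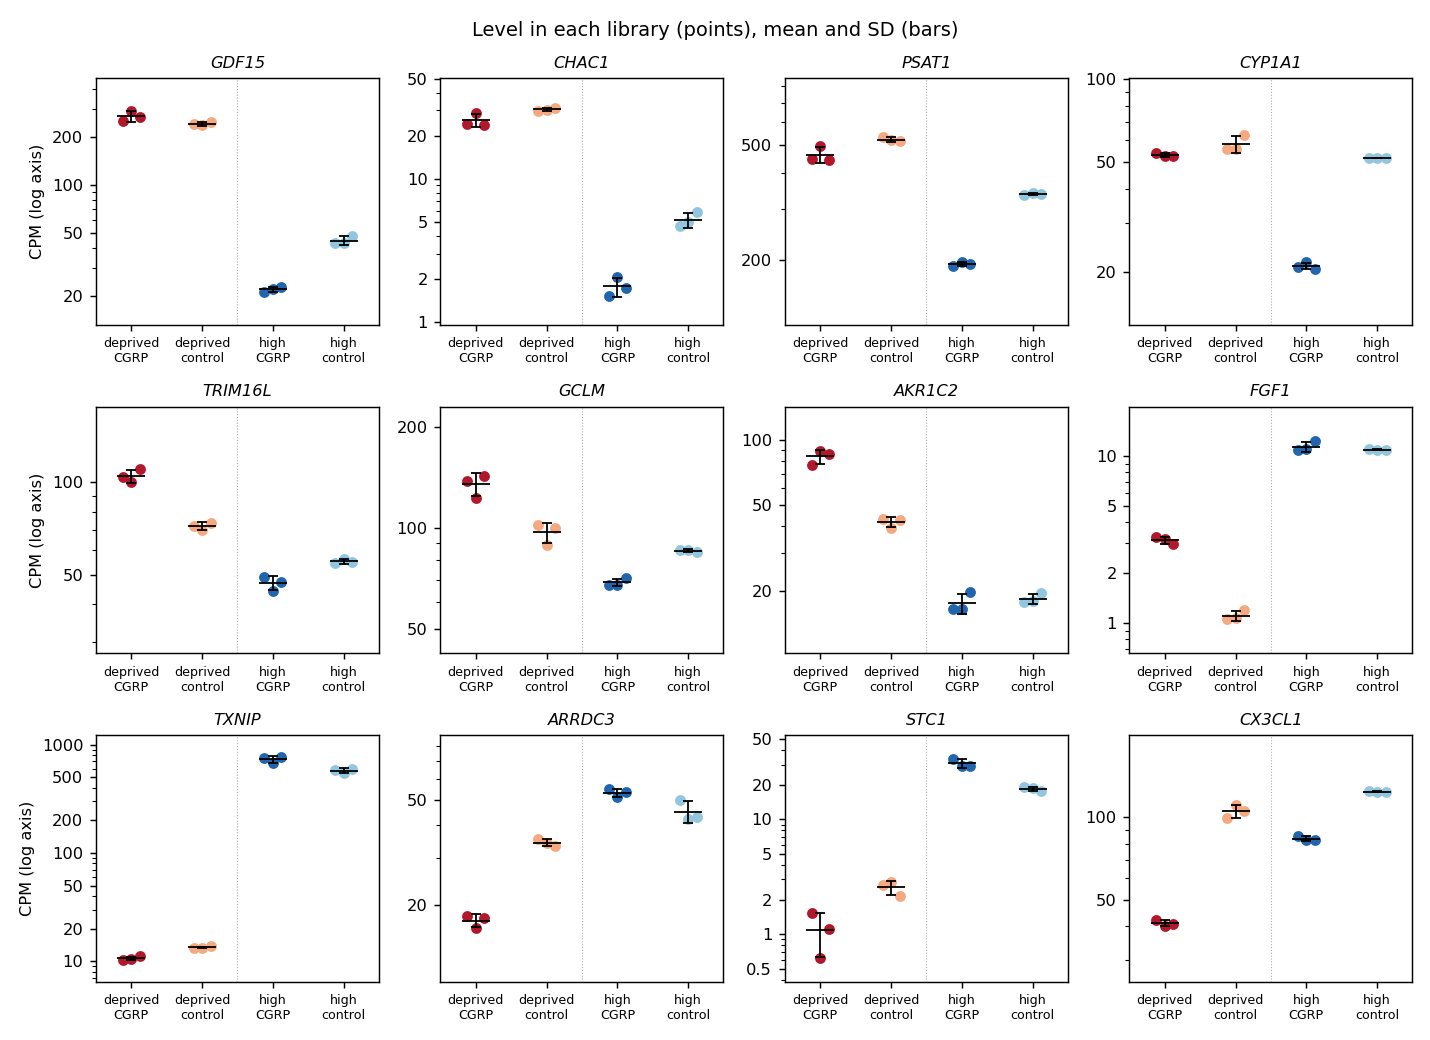
Level of 12 genes in each library, in CPM on a log axis, for deprived CGRP, deprived control, high-glucose CGRP and high-glucose control; bars give the mean and SD of 3 libraries. TXNIP, GCLM, TRIM16L and STC1 change sides between the media, while GDF15, CHAC1, PSAT1 and CYP1A1 are lowered mainly in high glucose.

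Genes that HIF factors drive had negative differences. Of 23 tested, 7 passed with a negative difference, 0 with a positive one and 16 did not pass, with a median of -0.38. The median response was -0.18 in deprived medium and 0.28 in high glucose. STC1, a secreted glycoprotein hormone, had 1.52, 0.617 and 1.11 CPM in deprived CGRP and 2.67, 2.86 and 2.14 CPM in deprived control. In high glucose it had 33.6, 29.3 and 29.0 CPM with CGRP and 19.1, 18.6 and 17.6 CPM in control. It fell with CGRP in deprived medium (-1.22) and rose in high glucose (0.73), without overlap in either, a difference of -1.96 ± 0.23 (adjusted p = 0.000324). EGLN3, a prolyl hydroxylase that marks HIF for destruction, had 40.5, 41.2 and 35.5 CPM in deprived CGRP, 55.2, 56.7 and 50.2 CPM in deprived control, 179, 174 and 165 CPM in high-glucose CGRP and 132, 120 and 124 CPM in high-glucose control. It moved the same way, with a difference of -0.93 ± 0.12 (adjusted p = 0.000716).

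LOX, an enzyme that crosslinks collagen, rose with CGRP in high glucose (0.60) and did not pass in deprived medium: 27.1, 23.7 and 24.8 CPM in deprived CGRP, 30.0, 29.0 and 28.8 CPM in deprived control, 77.9, 65.0 and 72.3 CPM in high-glucose CGRP and 48.7, 42.3 and 50.8 CPM in high-glucose control (difference -0.82 ± 0.12, adjusted p = 0.00208). EDN2, which encodes the vasoactive peptide endothelin 2, had the largest negative difference under the naming rule, -2.71 ± 0.42 (adjusted p = 0.00241). It had 2.44, 0.463 and 2.96 CPM in deprived CGRP, 16.4, 9.03 and 11.1 CPM in deprived control, 10.8, 9.01 and 10.1 CPM in high-glucose CGRP and 9.71, 9.15 and 8.92 CPM in high-glucose control. Its fall was in deprived medium alone, and without deprived CGRP 2, its lowest library, the difference was -2.27 (adjusted p = 8.76e-05). ANGPTL4, an inhibitor of lipoprotein lipase, fell in both media, to 2.58, 1.08 and 2.05 CPM in deprived CGRP against 13.7, 9 and 11.2 CPM in deprived control, and to 20.8, 17.0 and 20.1 CPM in high-glucose CGRP against 45.7, 42.0 and 43.1 CPM in high-glucose control. Its difference of -1.38 ± 0.28 (adjusted p = 0.0186) was lost without high-glucose control 2 or 3, high-glucose CGRP 1 or 3 or deprived control 1 (adjusted p up to 0.0876 over all alternatives). NDRG1 (-0.59) and KDM3A (-0.61) also passed. At an unadjusted p below 0.05 there were 2 positive and 12 negative members, and DESeq2 called 0 and 8. The list had 4 calls without high-glucose control 2, high-glucose CGRP 1 or deprived control 1.

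Among 24 genes of glycolysis and glucose uptake 3 passed, all negative, and the median difference was -0.20. PDK1, a kinase that closes the entry of pyruvate into mitochondria, had 60.7, 57.3 and 59.0 CPM in deprived CGRP, 73.1, 74.8 and 70.8 CPM in deprived control, 111, 114 and 101 CPM in high-glucose CGRP and 89.7, 91.3 and 86.4 CPM in high-glucose control. It fell with CGRP in deprived medium and rose in high glucose, a difference of -0.59 ± 0.10 (adjusted p = 0.00418). PFKFB3 (-0.75) and PFKL (-0.33), which set and catalyse the committed step of glycolysis, were the others. The transporter gene SLC2A1 (-0.26, adjusted p = 0.325) and HK2, the first kinase of the pathway (-0.60, adjusted p = 0.211), did not pass; in deprived CGRP, HK2 had 240, 134 and 222 CPM, the low value being deprived CGRP 2. Without that library 7 of the list passed, all negative, and with high-glucose control 2 or 3, high-glucose CGRP 1 or 2 or deprived control 1 left out 1 passed. OGA, which removes the glucose-derived sugar O-GlcNAc from proteins, had 110, 89.6 and 112 CPM in deprived CGRP, 195, 193 and 190 CPM in deprived control, 160, 159 and 153 CPM in high-glucose CGRP and 164, 165 and 158 CPM in high-glucose control. It fell in deprived medium alone (difference -0.85 ± 0.12, adjusted p = 0.000952) and was the single call among 25 genes of the hexosamine pathway and N-glycosylation.

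Interferon-stimulated genes had negative differences as well. Of 23 tested, 8 passed, all negative, and 20 had a negative estimate. The median of the 23 was -0.29, against 0.01 over all tested genes. MX1, a GTPase that traps viral particles, had 31.4, 27.3 and 31.4 CPM in deprived CGRP, 34.8, 34.7 and 34.8 CPM in deprived control, 72.0, 70.0 and 77.8 CPM in high-glucose CGRP and 56.9, 54.9 and 58.8 CPM in high-glucose control. CGRP libraries were below controls in deprived medium and above them in high glucose, a difference of -0.57 ± 0.09 (adjusted p = 0.00222). OASL, a relative of the antiviral oligoadenylate synthetases, had 10.1, 11.7 and 9.89 CPM in deprived CGRP, 14.3, 13.8 and 15.6 CPM in deprived control, 35.1, 35.4 and 36.3 CPM in high-glucose CGRP and 30.1, 31.1 and 32.6 CPM in high-glucose control (-0.66 ± 0.10, adjusted p = 0.00274). IFIT2 (-0.43), IFI44L (-0.66), IFIT1 (-0.52), IFIH1 (-0.34), MX2 (-0.43) and XAF1 (-0.62) were the other calls, and in high glucose 8 members of the list rose with CGRP and 0 fell. At an unadjusted p below 0.05 there were 0 positive and 10 negative differences, and DESeq2 called 0 and 8. The count was 3 to 5 with any library but deprived CGRP 2 left out, 7 without deprived CGRP 2, and 4 with scaling by total counts.

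Inflammatory genes driven by NF-kB had 4 negative calls among 27, 0 positive ones and a median of -0.10. CX3CL1, the membrane-bound chemokine fractalkine, fell in both media. It had 42.1, 40.1 and 40.6 CPM in deprived CGRP against 99.4, 111 and 106 CPM in deprived control, and 85.4, 82.6 and 82.3 CPM in high-glucose CGRP against 125, 124 and 124 CPM in high-glucose control. The fall was deeper in deprived medium (-1.36 and -0.57), a difference of -0.79 ± 0.07 (adjusted p = 1.77e-05). IL6, the cytokine interleukin 6, had 14.6, 17.7 and 13.3 CPM in deprived CGRP, 41.0, 37.4 and 37.4 CPM in deprived control, 3.80, 3.32 and 4.01 CPM in high-glucose CGRP and 4.81, 5.11 and 5.12 CPM in high-glucose control (-0.91 ± 0.16, adjusted p = 0.00874). The chemokines CXCL1 (-0.70) and CXCL2 (-0.81) passed too. The list was mixed by other measures, with 5 positive and 7 negative members at an unadjusted p below 0.05 and 3 and 5 called by DESeq2. With any library but deprived CGRP 2 left out the list had 2 calls, and CXCL1 did not pass.

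**Figure D3:**
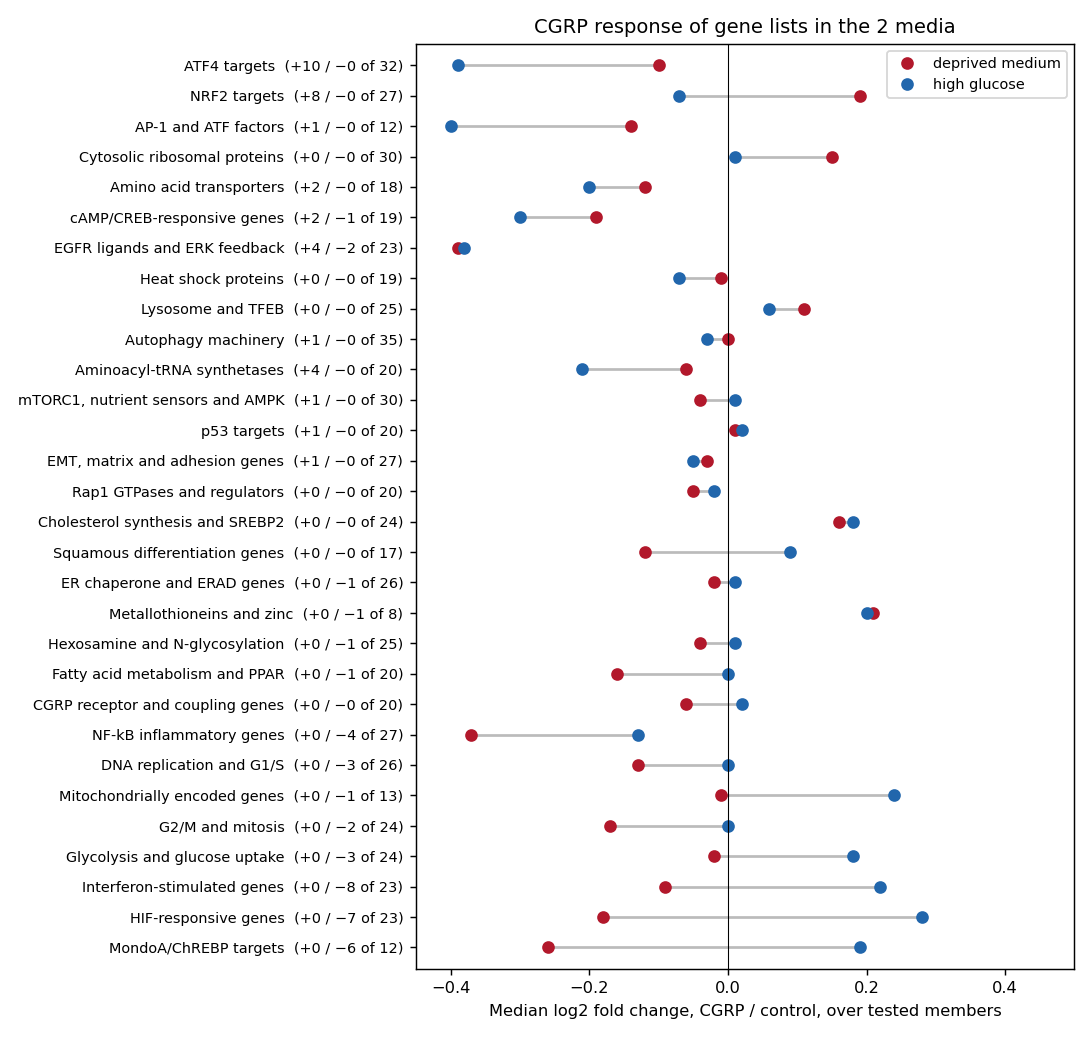
Median CGRP over control log2 fold change of each gene list in deprived medium (red) and high glucose (blue), with the number of positive and negative calls of the difference and of tested members beside each name. Lists are ordered by the median of their members' differences, with ATF4 and NRF2 targets at the top and HIF-responsive and MondoA/ChREBP genes at the bottom.

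Feedback genes of the EGF receptor and ERK pathway split. CGRP lowered most of the list in both media (14 of 23 fell in deprived medium and 13 in high glucose), and 4 had a positive and 2 a negative difference, with a median of 0.09. DUSP4, a phosphatase that turns ERK off, had 50.3, 40.0 and 52.4 CPM in deprived CGRP, 31.4, 31.1 and 34.4 CPM in deprived control, 25.9, 22.9 and 24.6 CPM in high-glucose CGRP and 29.6, 30.5 and 30.4 CPM in high-glucose control. It was higher with CGRP in deprived medium and lower in high glucose, although the fall in high glucose did not pass (-0.30, adjusted p = 0.0861), a difference of 0.86 ± 0.13 (adjusted p = 0.00213). PHLDA1 (0.43), DUSP6 (0.59) and EGR1 (0.68) had less negative responses in deprived medium than in high glucose. SPRY1, an inhibitor of receptor tyrosine kinase signalling, went the other way, with 1.24, 1.31 and 1.07 CPM in deprived CGRP, 1.68, 2.17 and 2.01 CPM in deprived control, 4.71, 4.69 and 3.85 CPM in high-glucose CGRP and 3.27, 2.70 and 3.10 CPM in high-glucose control (-1.25 ± 0.20, adjusted p = 0.00294). ERRFI1, a direct inhibitor of the EGF receptor, fell more in deprived medium (-0.70). The list had 2 positive calls without high-glucose control 2 or 3, high-glucose CGRP 2 or deprived control 2. FOSL1, an AP-1 subunit downstream of ERK, fell in both media, to 71.0, 63.6 and 69.5 CPM in deprived CGRP against 105, 86.8 and 92.8 CPM in deprived control, and to 24.5, 19.6 and 22.1 CPM in high-glucose CGRP against 54.1, 55.6 and 51.9 CPM in high-glucose control (0.81 ± 0.13, adjusted p = 0.00291).

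Calls of cell cycle genes depended on deprived CGRP 2 and on the tool. Of 24 genes of G2/M and mitosis 2 passed, KIF20A (-0.43, adjusted p = 0.00616) and KIF23 (-0.30), kinesins of the dividing cell's midzone. Of the 24, 23 had a negative estimate, with a median of -0.19 against 0.01 over all tested genes. Without deprived CGRP 2 there were 4 negative calls among these genes, without it and 2-DG control 2 there were 12, voom called 12 and DESeq2 3, and 9 had an unadjusted p below 0.05. The count was 1 without any 1 of high-glucose control 1, 2 and 3, high-glucose CGRP 2 and 3 and deprived control 2 and 3, and also with no low-count filter, with scaling by total counts and in a fit of the compared groups alone. Of 26 genes of DNA replication 3 passed, all negative: MCM6 (-0.42, adjusted p = 0.00216), a subunit of the replicative helicase, RRM2 (-0.38) and CCNE2 (-0.57). The DNA replication count was 1 without high-glucose control 1 or 3, high-glucose CGRP 2, deprived control 1 or deprived CGRP 3, 4 without deprived CGRP 2 and 10 without that library and 2-DG control 2, and voom called 10 negative members and 1 positive. MCM6 had 34.2, 35.8 and 34.2 CPM in deprived CGRP, 44.7, 43.8 and 41.0 CPM in deprived control, 177, 181 and 178 CPM in high-glucose CGRP and 163, 170 and 165 CPM in high-glucose control. The proliferation marker MKI67 did not pass (-0.32 ± 0.32, adjusted p = 0.795); deprived CGRP 2 had 47.8 CPM of it and the other deprived CGRP libraries 112 CPM each.

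Among the largest positive differences outside these lists, CYP1A1, a monooxygenase that the aryl hydrocarbon receptor induces, had 53.8, 52.4 and 52.6 CPM in deprived CGRP, 55.8, 55.5 and 62.9 CPM in deprived control, 20.9, 21.6 and 20.5 CPM in high-glucose CGRP and 51.7, 51.8 and 51.6 CPM in high-glucose control. The controls of deprived medium and high glucose were alike. With CGRP the gene fell in high glucose (-1.30) and did not pass in deprived medium, a difference of 1.17 ± 0.08 (adjusted p = 4.92e-06). It also fell with CGRP in 2-DG medium (-0.785, adjusted p = 5.47e-07). FGF1, a fibroblast growth factor, had 3.25, 3.16 and 2.96 CPM in deprived CGRP, 1.05, 1.07 and 1.19 CPM in deprived control, 10.9, 10.9 and 12.3 CPM in high-glucose CGRP and 11, 10.8 and 10.9 CPM in high-glucose control. It rose with CGRP in deprived medium (1.5) and did not pass in high glucose, a difference of 1.43 ± 0.12 (adjusted p = 1.32e-05). In 2-DG medium it rose less (0.51, adjusted p = 9.44e-05). ARNT2, a partner of hypoxia and aryl hydrocarbon receptors (1.32), FSD1, a microtubule-associated protein (1.51), and the T cell receptor segment TRAV8-1 (1.22) rose in deprived medium likewise at low levels. FLRT1, a membrane protein of adhesion and FGF signalling, had 13.8, 12.3 and 14.4 CPM in deprived CGRP, 10.6, 10.0 and 10.2 CPM in deprived control, and less than 1 CPM in every high-glucose library (1.51 ± 0.27, adjusted p = 0.00738).

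Among the largest negative differences outside the lists, PPP1R3B, which brings a phosphatase to glycogen, had 26.0, 15.7 and 24.8 CPM in deprived CGRP, 43.9, 33.7 and 38.9 CPM in deprived control, 35.1, 32.4 and 33.1 CPM in high-glucose CGRP and 26.2, 25.2 and 27.4 CPM in high-glucose control (-1.16 ± 0.20, adjusted p = 0.00585). The CGRP libraries lay below their controls in deprived medium and above them in high glucose, where the response did not pass (0.35, adjusted p = 0.216). TGFB2, a TGF-beta ligand, had 7.91, 5.59 and 7.97 CPM in deprived CGRP, 13.9, 14 and 14.2 CPM in deprived control, 2.88, 3.22 and 3.12 CPM in high-glucose CGRP and 2.70, 3.02 and 2.83 CPM in high-glucose control, and fell in deprived medium alone (-1.07 ± 0.20, adjusted p = 0.00953). TCAF2, which regulates TRP channels, had 0.954, 1.12 and 0.910 CPM in deprived CGRP, 1.58, 1.97 and 1.73 CPM in deprived control, 14.1, 12.9 and 11.1 CPM in high-glucose CGRP and 7.18, 7.53 and 6.90 CPM in high-glucose control (-1.65 ± 0.21, adjusted p = 0.000784). It fell with CGRP in deprived medium and rose in high glucose.

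In all, 24 genes passed in both media in opposite directions, and each of them also passed the test of the difference. Since the difference is the deprived response minus the high-glucose response, passing in opposite directions makes that outcome nearly certain. It is no further support for these genes. The 16 that fell with CGRP in deprived medium and rose in high glucose were STC1, SFPQ, SLC44A2, EGLN3, TCAF2, TXNIP, LPAR1, MT-ND6, MX1, SPRY1, PDK1, IFIT2, PGM2, SOCS3, HLA-DRA and SLC30A1. The 8 that rose in deprived medium and fell in high glucose were TRIM16L, BCAN-AS1, GCLM, NMRAL2P, WNT7A, PLAU, FLRT1 and UBL7-DT. BCAN-AS1 had 25.2, 24.7 and 23.8 CPM in deprived CGRP, 17.5, 18 and 19.0 CPM in deprived control, 14.8, 15.6 and 14.5 CPM in high-glucose CGRP and 20.6, 21.8 and 19.8 CPM in high-glucose control (0.91 ± 0.09, adjusted p = 7.01e-05); the strand setting of the counting is not given, so its reads cannot be told from those of its antisense partner. SFPQ, an RNA splicing factor, had 131, 129 and 135 CPM in deprived CGRP, 167, 154 and 156 CPM in deprived control, 309, 312 and 314 CPM in high-glucose CGRP and 269, 266 and 261 CPM in high-glucose control (-0.51 ± 0.06, adjusted p = 0.000523). PLAU, the plasminogen activator urokinase, had 941, 1015 and 973 CPM in deprived CGRP, 807, 809 and 838 CPM in deprived control, 971, 974 and 1009 CPM in high-glucose CGRP and 1139, 1126 and 1173 CPM in high-glucose control (0.47 ± 0.07, adjusted p = 0.00213). For BCAN-AS1, SFPQ and PLAU the CGRP and control libraries did not overlap in either medium. They are among the genes that passed in both media, a choice that favours such separation. The share of all tested genes without overlap is not given here, so the separation is a description only.

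The CGRP receptor did not pass. CALCRL had 3.36, 2.47 and 2.54 CPM in deprived CGRP, 2.14, 2.14 and 2.24 CPM in deprived control, 6.49, 4.41 and 5.82 CPM in high-glucose CGRP and 5.07, 6.03 and 4.61 CPM in high-glucose control (0.27 ± 0.28, adjusted p = 0.804). RAMP1 had 6.64, 12.1 and 6.96 CPM in deprived CGRP, 6.72, 6.51 and 7.45 CPM in deprived control, 19.5, 21.0 and 19.9 CPM in high-glucose CGRP and 17.9, 18.9 and 18.5 CPM in high-glucose control (0.18 ± 0.26, adjusted p = 0.864), a sign that was negative without deprived CGRP 2. Of the 20 tested genes of the receptor and its coupling 0 passed in edgeR (1 positive and 2 negative at an unadjusted p below 0.05), and DESeq2 called 0 positive and 1 negative. Among 19 cAMP-responsive genes PPARGC1A (1.43), a coactivator of mitochondrial biogenesis, and EGR1 had positive differences.

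HSPA5 (BiP), the chaperone that folds proteins in the endoplasmic reticulum, had 18250, 22050 and 18450 CPM in deprived CGRP, 20560, 20840 and 20390 CPM in deprived control, 988, 1007 and 1013 CPM in high-glucose CGRP and 926, 918 and 924 CPM in high-glucose control. Its CGRP response did not pass as different (-0.19 ± 0.10, adjusted p = 0.497). Without deprived CGRP 2, the high library of its group, the difference was -0.28 and passed (adjusted p = 0.0295). Of 26 chaperone and ER degradation genes 1 passed, the ER oxidase ERO1A (-0.30), which lost the call under 14 of 21 alternatives. Without deprived CGRP 2 and 2-DG control 2 the list had 7 negative and 3 positive calls. With voom it also had 7 negative and 3 positive calls. Among autophagy genes ULK1, the initiating kinase (-0.28, adjusted p = 0.0556), and MAP1LC3B, which encodes LC3B (0.08, adjusted p = 0.852), did not pass, and SQSTM1 was the single call among 35. Lists with 0 calls in edgeR were cholesterol synthesis (24 genes), lysosome (25), Rap1 regulators (20), squamous differentiation (17), heat shock proteins (19) and cytosolic ribosomal proteins (30). Of these ribosomal genes 29 had a positive estimate, with a median of 0.14 against 0.01 over all tested genes. Without deprived CGRP 2 and 2-DG control 2 there were 12 negative calls among the ribosomal genes. At an unadjusted p below 0.05 these 6 lists had 0 positive and 2 negative, 0 and 1, 2 and 0, 1 and 3, 3 and 0, and 0 and 0 members in that order, and DESeq2 called a single one, a positive heat shock gene. There were 0 calls in edgeR or DESeq2 among 7 neuron, 5 Schwann cell, 3 leukocyte, 5 fibroblast and 3 endothelial markers tested, of which 0 neuron, 1 Schwann cell, 2 leukocyte, 3 fibroblast and 0 endothelial markers had an unadjusted p below 0.05. Lists with 1 call were mTORC1 and nutrient sensors (CASTOR2, positive, of 30), epithelial-mesenchymal genes (PLAU, positive, of 27), p53 targets (GDF15, positive, of 20), fatty acid metabolism (ANGPTL4, negative, of 20), metallothioneins and zinc (SLC30A1, negative, of 8), mitochondrially encoded genes (MT-ND6, negative, of 13) and squamous markers (KRT6A, negative, of 16). Another list with 1 call was AP-1 and ATF factors (FOSL1, positive, of 12), where the other 11 did not pass. All 13 mitochondrially encoded genes had a negative estimate, with a median of -0.16 against 0.01 over all tested genes. Of the 13, 3 passed without deprived CGRP 2 and 10 without that library and 2-DG control 2, and voom with quality weights called 12.

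The CGRP response in 2-DG medium shares no library with the responses above. Among the 282 genes the CGRP response in 2-DG medium was nearer to that in high glucose for 256 (90.8%) and nearer to that in deprived medium for 26; over all tested genes the share nearer to high glucose was 64.7%. Across the 282 genes the 2-DG response had a Pearson r of 0.862 (Spearman rho 0.783) with the response in high glucose and 0.168 (rho 0.17) with that in deprived medium, against 0.352 and 0.251 across all tested genes. These are descriptions across genes, which are not independent replicates. The 282 genes were chosen by the difference between their deprived and high-glucose responses. That choice shapes these shares and correlations, so the contrast with all tested genes is not a test. Of the 282 genes, 195 had the larger response in deprived medium. In 2-DG medium 178 of these (91.3%) were nearer to high glucose, against 72.4% of all tested genes with the larger response in deprived medium. Of the 87 with the larger response in high glucose, 78 (89.7%) were nearer to high glucose. That share was 50.3% of all tested genes with the larger response in high glucose. The part of response size in these shares was not tested. For the 164 positive genes the median response was 0.48 in deprived medium, -0.11 in high glucose and -0.01 in 2-DG, and for the 118 negative genes it was -0.31, 0.16 and 0.12 in the same order. Of the 24 genes that moved in opposite directions, 22 had in 2-DG medium the sign of their high-glucose response. TXNIP rose with CGRP in 2-DG medium (0.33, adjusted p = 0.00155), and GDF15 (-1.09) and CHAC1 (-1.12) fell there. Other MondoA and ChREBP genes were mixed in 2-DG medium. ARRDC3 rose (0.30, adjusted p = 0.0145), while ARRDC4 (-0.02, adjusted p = 0.904) and KLF10 (-0.11, adjusted p = 0.211) did not pass. The median of that list was 0.03 in 2-DG medium against 0.19 in high glucose, and that of ATF4 targets -0.56 against -0.39. KIF20A, which fell with CGRP in deprived medium (-0.39), rose in 2-DG (0.55, adjusted p = 3.86e-06).

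**Figure D4:**
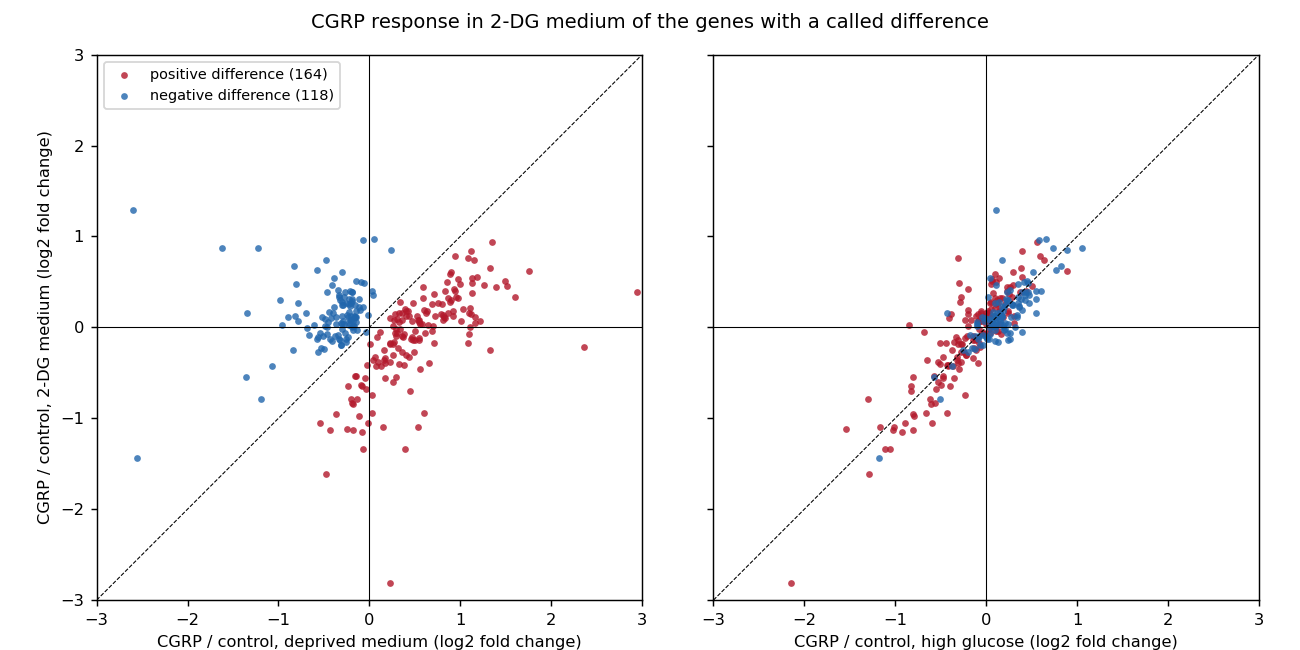
CGRP over control log2 fold change in 2-DG medium (vertical axis of both panels) against that in deprived medium (left) and in high glucose (right) for the 164 genes with a positive (red) and the 118 with a negative difference (blue). The points follow the dashed line of equal response on the right, with a Pearson r of 0.862, and not on the left, where r is 0.168. The genes were chosen by the difference between the responses on the horizontal axes, which shapes both values of r.

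How firmly single genes are placed differs. Of the 74 named genes 64 passed, and all 64 also passed without deprived CGRP 2, in the same direction. Under all 21 alternatives 43 kept the call, among them TXNIP, ARRDC3, GDF15, CHAC1, INHBE, GCLM, AKR1C2, STC1, EGLN3, CX3CL1, CYP1A1 and FGF1. The other 21 lost it under at least 1, among them ANGPTL4, ARRDC4, CASTOR2, CCNE2, CXCL1, EGR1, ERO1A, HCAR3, HLA-DPA1, KIF23, KRT6A, PFKFB3, PFKL, PPARGC1A, RRM2, SLC1A5, SLC30A1, SLC43A1, WARS1 and YARS1. For 20 of these, all but ARRDC4, leaving out at least 1 high-glucose library sufficed, and the highest adjusted p over the alternatives ran from 0.0625 to 0.431. HCAR3, a receptor for hydroxy fatty acids (1.27), and HLA-DPA1, a chain of an antigen-presenting molecule (-1.14), were measured at mean levels below 4 and below 7 CPM in every group.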

How the data were processed

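The authors deposited a table of raw counts for 60683 Ensembl gene IDs, whole numbers per the file headers; the submitters' processing notes name HISAT2 2.0.4 and the builds hg19 and GRCh38 without their roles. Which program counted reads, with which annotation and strand setting, is not given in the sources used here. A gene name table held 60370 of the IDs. After filterByExpr on 6 groups (minimum 10, total 15), robust quasi-likelihood F tests were run in edgeR 4.0.16 under R 4.3.3 with TMM scaling, on all 18 libraries (1 coefficient per group, 12 residual degrees of freedom, common biological coefficient of variation 9.44%). P-values of each contrast were adjusted by Benjamini-Hochberg over its 18159 genes, with a threshold of 0.05. CPM values are TMM-scaled. P-values weigh a difference against the spread of libraries within groups, pooled over all 18 libraries. The SE printed is the absolute log2 fold change over the square root of the F statistic of that test.

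Named genes were the 10 largest called differences each way (mean log2 CPM of 1 or more, official symbols, responses of the media apart library by library), up to 3 called members of each list by adjusted p, 14 fixed genes, and the 5 genes of smallest adjusted p among those moving in opposite directions. Some genes are not reported here. Genes beyond these were named after their values were seen. The genes and lists were chosen with earlier results of these data known, and lists are described by counts, with no test. Replicate numbers did not pair the libraries (correlations of deviations -0.082 to 0.174, over 0.1 in 2 of 18 pairs). Alternatives were RLE factors, total-count scaling, DESeq2 1.42.0, limma 3.58.1 voom with quality weights, no filter and a stricter one, separate fits of the groups in a contrast, the replicate block, and libraries left out.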

Additional observations from a re-analysis of the deposited data

Results flagged for a closer look

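The CGRP response differed between deprived and high-glucose medium, by the test of the difference itself, in 164 genes with the higher response in deprived medium and in 118 with the lower. Of these, 24 genes passed in both media in opposite directions, with GCLM, TRIM16L and PLAU rising in deprived medium and TXNIP, STC1 and MX1 falling there. The number of such genes moved between 9 and 229 over the alternatives and was 203 without deprived CGRP 2 and 2-DG control 2.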

How the results depend on the processing

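The number of genes with a called difference, 282, was 285 with RLE factors, 275 with scaling by total counts (which moved the median difference of all tested genes to 0.04, against 0.01), 390 with a stricter filter on low counts, 519 with DESeq2, 2731 with voom and sample quality weights (all 282 among them), 163 with no filter on low counts and 164 with only the groups compared. It was 2500 without deprived CGRP 2 and 2-DG control 2. With single libraries left out it ran between 162 and 582, the highest value being the one without deprived CGRP 2. The count for CGRP in deprived medium, 2354, was 6016 with voom, 1463 with no filter, 141 with only its own groups, 5307 without both outlying libraries, and 1282 to 2726 with single libraries left out. The count for CGRP in high glucose, 787, was 3704, 474, 3653 and 3520 in the same order, and 353 to 487 with single libraries left out. The causes were not tested, except that the last fits have fewer samples and the fit with no filter tests more genes. The replicate block, which the pairing check did not call for, gave 268, 2380 and 781 calls in the 3 comparisons. The difference of MAP1LC3B turned to -0.0344 with voom and to -0.035 without both outlying libraries, and ran between -0.0351 (without deprived CGRP 2) and 0.14 with single libraries left out; that of RAMP1 turned to -0.16 and -0.14, and ran between -0.14 and 0.34. DDIT3, HK2, HSPA5, SLC2A1 and ULK1, which did not pass, passed under at least 1 alternative. Depth limits genes of few CPM, such as ASNS and HCAR3.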
